A study of Mus musculus with 8 samples.

Results

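The genes that make prostaglandins and leukotrienes from arachidonic acid were followed in activated hepatic stellate cells (HSCs) and in bone marrow derived macrophages (BMDM) exposed to auranofin, a gold-containing drug used in rheumatoid arthritis. The group holds 10 genes chosen by symbol, namely Pla2g4a, Ptgs1, Ptgs2, Ptges, Ptges2, Ptgis, Alox5, Alox5ap, Lta4h and Ltc4s. All 10 were found among the 18645 genes of the HSC table and among the 17408 genes of the BMDM table. The rule itself uses symbols only and no measured value, although it was written with earlier results of these data known.

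Eicosanoid synthesis begins when cytosolic phospholipase A2, the product of Pla2g4a, frees arachidonic acid from membrane lipids. Cyclooxygenases then turn it into prostaglandin H2, with Ptgs1 encoding the form that many resting cells carry and Ptgs2 the form that is strongly induced in macrophages by bacterial lipopolysaccharide (LPS), and terminal synthases make prostaglandin E2 or prostacyclin from that intermediate. In the other branch, arachidonate 5-lipoxygenase (Alox5) works with its activating protein (Alox5ap) to make leukotriene A4, from which Lta4h forms leukotriene B4 and Ltc4s leukotriene C4.

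RNA sequencing was carried out on 8 libraries of C57BL/6 mouse cells, 2 in each of 4 groups. Activated HSCs isolated from liver served as control (vehicle in the text of the study) or received 0.03 µM auranofin for 12 h. All BMDM received LPS and ATP, the combination that sets off the NLRP3 inflammasome. In the study, LPS at 100 ng/mL was the priming step of 4 h, and 1 mM ATP was added after it. Exposure to vehicle or auranofin lasted 1 h. The auranofin dose is 0.1 µM in the sample labels and higher in the text of the study. BMDM without LPS and ATP were not among these samples, so the part of LPS in any level could not be measured. Both cell types were primary cultures, the BMDM grown from marrow of male mice, and nothing in the labels says that the 2 libraries of a group came from separate cultures or animals, so p-values measure only the spread between these libraries.

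Values are deposited FPKM, fragments scaled to transcript length and to the size of the library, so that levels of different genes can be set side by side. Depth was estimated from the smallest steps in the tables at between 2.98e+07 and 3.94e+07 fragments in HSC libraries and between 2.75e+07 and 3.49e+07 in BMDM libraries. In BMDM, auranofin replicate 1 stood apart. It differed at least 2-fold from auranofin replicate 2 at 751 of 9232 genes, whereas the 2 control libraries differed that far at 36 genes. In HSCs the same counts were 41 for the auranofin pair and 37 for the control pair, of 12149 genes. The HSC cultures also held macrophage transcripts. The 15 macrophage markers summed to between 8831 and 9112 FPKM and the 12 stellate or fibroblast markers to between 4087 and 4755 FPKM, so that in these bulk samples fewer cells of a type and less RNA per cell cannot be told apart.

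Ptgs2 lies on chromosome 1 of the mm10 assembly, at chr1:150100031-150108234 on the plus strand, and Pla2g4a is on the same chromosome at chr1:149829618-149961290 on the minus strand. Ptgs1 occupies chr2:36216742-36258593 (plus), Ptges chr2:30889471-30931020 (minus), Ptges2 chr2:32395890-32402740 (plus) and Ptgis chr2:167203194-167252150 (minus). Of the leukotriene genes, Alox5 is at chr6:116410071-116461178 (minus), Alox5ap at chr5:149265004-149288153 (plus), Lta4h at chr10:93453396-93484896 (plus) and Ltc4s at chr11:50236461-50238532 (minus). Each is annotated as protein coding. These spans cover every RefSeq transcript of a gene, predicted ones included. Antisense transcripts overlap Ltc4s, Alox5ap and Ptgis in the annotation, and since the strand setting of the authors' quantification was not given, reads of such partners cannot be told apart from those of the gene.

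The 250 bases upstream of a RefSeq start (GRCm38.p6) are shown for both cyclooxygenases, whose levels stood in opposite order in the 2 cell types, and for Ptges, which had its lowest BMDM value in the same library as Ptgs2. Capitals mark matches to 5 letter patterns searched on both strands: GGGCGG (GC box), TTGCGCAA (C/EBP palindrome), CACGTG (E-box), TGACGT (cyclic AMP response element core) and TGACNNNGC (antioxidant response element core). The patterns were chosen after the data had been seen. The windows of Ptgs1 and Ptges belong to 1 start each and lie inside the gene spans given above, which begin further upstream.
Ptgs2, chr1:150099781-150100030, plus strand: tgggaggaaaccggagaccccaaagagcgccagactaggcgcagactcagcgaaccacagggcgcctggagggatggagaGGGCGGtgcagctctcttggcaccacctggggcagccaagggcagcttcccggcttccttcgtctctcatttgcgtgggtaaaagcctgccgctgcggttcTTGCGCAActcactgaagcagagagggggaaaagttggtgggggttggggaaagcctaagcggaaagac
Ptgs1, chr2:36230176-36230425, plus strand: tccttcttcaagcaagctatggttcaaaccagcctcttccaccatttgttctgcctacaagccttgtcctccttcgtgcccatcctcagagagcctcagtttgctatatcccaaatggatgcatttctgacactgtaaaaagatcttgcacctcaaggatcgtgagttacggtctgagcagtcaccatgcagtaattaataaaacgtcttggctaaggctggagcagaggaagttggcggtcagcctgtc
Ptges, chr2:30903298-30903547, minus strand: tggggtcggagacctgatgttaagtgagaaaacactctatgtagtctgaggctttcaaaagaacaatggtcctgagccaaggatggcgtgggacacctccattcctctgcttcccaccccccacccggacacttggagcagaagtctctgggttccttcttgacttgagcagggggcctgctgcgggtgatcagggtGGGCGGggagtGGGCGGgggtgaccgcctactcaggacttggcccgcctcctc

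The Ptgs2 window held TTGCGCAA from 69 to 62 bases before the start, a pattern found in 0.164% of the 32851 promoter windows of the same length. It also held GGGCGG from 170 to 165 bases before the start, and Ptges held that pattern at 53 to 48 and at 42 to 37 bases, against 32.7% of all windows with at least 1 match. None of the 5 patterns matched in the Ptgs1 window, which says only that these letters are not there. Of the 8 members with a promoter entry, Alox5 had GGGCGG at 35 to 30 bases and Ptges2 had CACGTG at 77 to 72 bases. CACGTG was present in 6.02% of windows, TGACGT in 6.47% and TGACNNNGC in 10.2%. TGACGT and TGACNNNGC matched in the window of no member, and bases past the start or further upstream were not searched. These matches describe the sequence and are not evidence of binding.

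In control HSC cultures the cyclooxygenase transcripts were mostly Ptgs1. The levels are those of the whole culture, macrophage transcripts included, and the share of each cell type in them was not measured. Ptgs1 measured 71.0 and 72.3 FPKM in the 2 control libraries, and Ptgs2 measured 7.31 and 6.21 FPKM. The ratio of Ptgs1 to Ptgs2 lay between 9.72 and 11.8 in all 4 HSC libraries, so the order of the 2 genes was the same in every one. Ptgis, which encodes prostacyclin synthase, stood at the level of Ptgs1, with 68.0 and 74.4 FPKM, and the ranges of these 2 genes overlapped. The prostaglandin E synthase genes of the group were far lower. Ptges2 reached 9.34 ± 0.497 FPKM (mean ± SD, n = 2), and Ptges, the inducible microsomal form, 4.95 ± 0.350.

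On the leukotriene side of control HSCs, Lta4h was highest at 48.7 ± 0.171 FPKM (SD, n = 2), followed by Alox5ap at 23.8 ± 2.74. Pla2g4a stood just under Alox5ap at 19.8 ± 0.156 FPKM. The lipoxygenase itself was nearly silent, since Alox5 measured 0.822 and 0.837 FPKM in control and 0.795 and 0.992 FPKM in auranofin libraries, below the mean of 1 FPKM required for testing. Those values correspond to about 73, 78, 67 and 110 fragments. Transcripts of the activating protein exceeded those of the enzyme it serves 26.5-fold to 39.1-fold in a library. Ltc4s was low too, at 1.25 ± 0.196 FPKM. Apart from Ptgs1 and Ptgis, no pair of neighbours in the order of control levels had overlapping values.

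**Figure D1:**
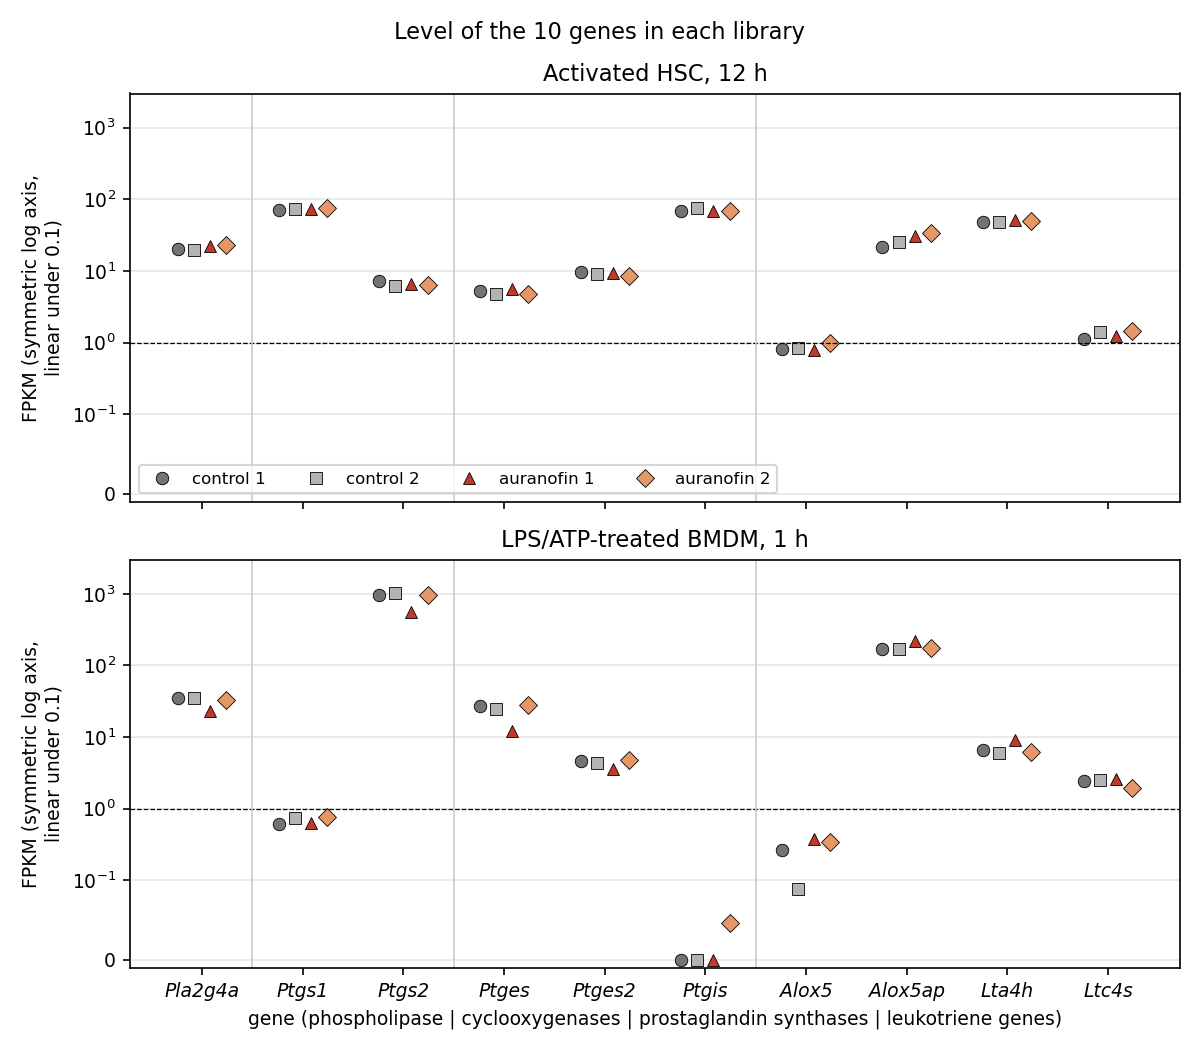
FPKM of each of the 10 genes in each of the 4 HSC libraries (top) and 4 BMDM libraries (bottom), on a symmetric log axis that is linear under 0.1, with a dashed line at 1 FPKM. Ptgs1 and Ptgis lead in HSCs at 68.0 to 74.6 FPKM, whereas Ptgs2 leads in BMDM at 566 to 1031 FPKM and Ptgs1 and Ptgis are under 1 FPKM there.

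In control BMDM the order was a different one. Ptgs2 was at 950.5 and 1031 FPKM, the highest of the 10 genes, and Ptgs1 was at 0.612 and 0.738 FPKM. Ptgs2 exceeded Ptgs1 1552-fold and 1399-fold in the 2 control libraries. Ptgis was listed at 0 in control replicate 1, control replicate 2 and auranofin replicate 1, and at 0.0460 FPKM in the last library, a value worth about 3 fragments. Of the pair of E synthase genes in the group, the inducible Ptges (26.1 ± 1.62 FPKM, SD, n = 2) here stood above Ptges2 (4.51 ± 0.212).

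Alox5ap was second in control BMDM, at 169 ± 2.14 FPKM (SD, n = 2), with Pla2g4a next at 35.1 ± 0.378. Lta4h followed at 6.39 ± 0.446 FPKM and Ltc4s at 2.49 ± 0.0390. Alox5 was again nearly silent, with 0.262 and 0.0896 FPKM in control and 0.379 and 0.347 FPKM in auranofin libraries, or about 22, 7, 37 and 34 fragments. Transcripts of the activating protein were thus abundant in both sets of cultures and those of the lipoxygenase were not. Because the 2 tables were normalized separately and the cells differ in source and treatment, no test was made between them, and the levels stand side by side only. Placed so, the mean control level was 71.7 FPKM in HSCs and 0.675 in BMDM for Ptgs1, 6.76 and 991 for Ptgs2, and 48.7 and 6.39 for Lta4h. The 15 macrophage markers summed to between 9007 and 9112 FPKM in control HSC cultures and to between 11452 and 11829 in control BMDM. Whether stellate cells or macrophages carried the HSC levels was not tested.

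The first comparison asked which of the genes differed between HSCs with and without 0.03 µM auranofin. The leukotriene gene Alox5ap and the phospholipase gene Pla2g4a were higher in both auranofin libraries than in either control, by 36.2% and 13.8% on the means, and both missed the adjusted threshold. Of the 9 members with a mean of at least 1 FPKM, 0 had an adjusted p under 0.05 in limma with Benjamini-Hochberg adjustment, where 2.33% of all 12149 genes tested did. At an unadjusted p under 0.05 there were 2 of 9, Alox5ap and Pla2g4a, where 2161 of the 12149 genes were. None reached 1.5-fold with an unadjusted p under 0.05, a rule that 0.576% of all genes met. The groups did not overlap in 4 of 9 members (44.4%), all higher with auranofin, against 50.1% of all genes tested. Of the log2 fold changes 6 were positive and 3 negative, and their median was 0.048 beside 0.0049 over all genes tested.

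Pla2g4a measured 19.9 and 19.7 FPKM in control HSCs and 22.2 and 22.8 FPKM with auranofin. Both treated libraries lay above both controls by more than the gap within either pair. The log2 fold change, on the log2(FPKM + 1) scale used throughout, was 0.18 (SE 0.04), with a limma p of 0.00439 and a Benjamini-Hochberg adjusted p of 0.0898.

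For the cyclooxygenases, Ptgs1 read 71.0, 72.3, 73.6 and 74.6 FPKM in control replicates 1 and 2 and auranofin replicates 1 and 2. Its treated values were above its control values by little more than the spread within a group, and the log2 fold change was 0.048 with a 95% interval of -0.034 to 0.13 (limma adjusted p = 0.508). Ptgs2, in the same order, read 7.31, 6.21, 6.47 and 6.35 FPKM. The treated values fell inside the control range, and the log2 fold change of -0.064 had an interval of -0.25 to 0.13 (limma adjusted p = 0.716).

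Among the synthases, Ptgis measured 68.0 and 74.4 FPKM in control and 69.2 and 69.1 FPKM in auranofin HSCs, so the treated pair sat within the control range. Ptges read 5.19 and 4.70 FPKM against 5.57 and 4.75, and Ptges2 read 9.69 and 8.99 FPKM against 9.49 and 8.49. Control and treated values of these genes overlapped, and the 3 log2 fold changes of -0.040, 0.049 and -0.051 were each within 1.5 standard errors of 0.

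Alox5ap, a membrane protein that presents arachidonic acid to the lipoxygenase, had the largest difference of the members in HSCs. It measured 21.8 and 25.7 FPKM in control and 31.1 and 33.6 FPKM in auranofin libraries. The lowest treated value exceeded the highest control value, although the controls themselves lay apart. The log2 fold change was 0.43 (SE 0.08, 95% interval 0.23 to 0.64), with a limma p of 0.00207 and a Benjamini-Hochberg adjusted p of 0.0641. Without control replicate 1 the fold change was 0.32 and the limma adjusted p 0.0228, and without control replicate 2 they were 0.55 and 0.00189, and in both fits the remaining control library is assumed to vary like the treated pair. Without auranofin replicate 1 or 2 the limma adjusted p was 0.105 or 0.146.

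The enzymes that use leukotriene A4 differed less. Lta4h, an aminopeptidase as well as a hydrolase, gave 48.9 and 48.6 FPKM in control and 51.3 and 49.6 FPKM with auranofin, a log2 fold change of 0.048 (limma adjusted p = 0.542). Ltc4s, which conjugates glutathione, gave 1.11, 1.39, 1.23 and 1.46 FPKM, and its groups overlapped.

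**Figure D2:**
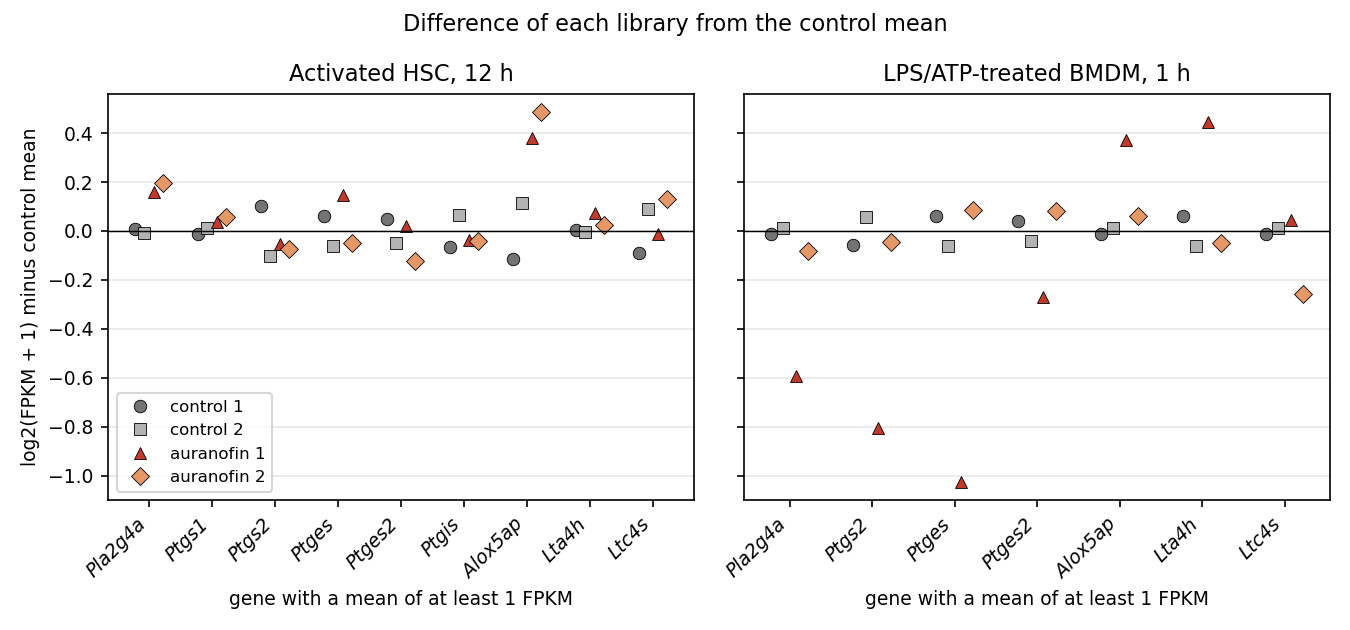
Difference of each library from the mean of the 2 control libraries, as log2(FPKM + 1), for the members with a mean of at least 1 FPKM in HSCs (left, 9 genes) and BMDM (right, 7 genes). In HSCs only Alox5ap lies beyond 0.3 in either auranofin library, and in BMDM auranofin replicate 1 (triangles) lies far from the other 3 libraries for Ptges, Ptgs2, Pla2g4a, Lta4h and Alox5ap.

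The second comparison asked the same of BMDM treated with LPS and ATP. Ptgs2, Ptges and Pla2g4a, which together form a route from membrane lipid to prostaglandin E2, were lower in auranofin replicate 1, at 57.2%, 47.2% and 65.3% of their control means, but stood at 96.8%, 106% and 94.3% in auranofin replicate 2. Ptges3, an E synthase gene outside the group, went the other way in auranofin replicate 1, at 81.3 FPKM against 36.8 and 36.6 in control. With the treated libraries this far apart, 0 of the 7 members tested had an adjusted p under 0.05 (limma, Benjamini-Hochberg), beside 0.0108% of the 9232 genes tested, and 0 had an unadjusted p under 0.05, where 49 genes did. None met the 1.5-fold rule with an unadjusted p under 0.05, which 0.152% of all genes did. The groups did not overlap in 2 of 7 members (28.6%), Alox5ap higher and Pla2g4a lower, against 38.8% of all genes. Ptgs1, Ptgis and Alox5 were under 1 FPKM on average and were not tested.

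Ptgs2 measured 950.5 and 1031 FPKM in control BMDM, against 566 FPKM in the first auranofin library and 959 FPKM in the second. Only the first treated library lay outside the control range. The log2 fold change was -0.43 (SE 0.29, 95% interval -1.23 to 0.38), with a limma p of 0.217 and a Benjamini-Hochberg adjusted p of 0.721. In auranofin replicate 1, 4.55% of all genes tested lay at least as far below their control mean as Ptgs2 did.

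Ptges read 27.2 and 25.0 FPKM in control and 12.3 and 27.7 FPKM in the treated libraries. The second of these was above both controls and the first below both, so the fold change of -0.47 (SE 0.41) averages opposite directions. Ptges2, also an E synthase gene, read 4.66 and 4.36 FPKM against 3.57 and 4.82, with the same pattern. Pla2g4a read 34.8 and 35.4 FPKM against 22.9 and 33.1. Here both treated libraries were below both controls, by 34.7% and 5.72% of the control mean, with a log2 fold change of -0.34 (SE 0.21, limma adjusted p = 0.721).

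In the leukotriene branch, Alox5ap measured 168 and 171 FPKM in control and 219 and 177 FPKM in auranofin BMDM. Both treated values were above both controls, by 29.7% and 4.47% of the control mean, and the log2 fold change was 0.22 (SE 0.15, limma adjusted p = 0.721). Lta4h gave 6.70 and 6.07 FPKM in control and 9.04 and 6.13 FPKM in the treated libraries. Ltc4s gave 2.46 and 2.52 FPKM against 2.60 and 1.92. For these enzymes the groups overlapped. Of the 7 members tested, Ltc4s was the only one whose larger departure was in auranofin replicate 2.

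All 7 tested members had a wider gap between the 2 auranofin libraries than between the 2 controls, from 0.30 to 1.11 on the log2 scale against at most 0.12. Relative to control, the members had a median log2 difference of -0.27 in the first auranofin library and of -0.046 in the second, where all genes tested had 0.18 and 0.0049. When auranofin replicate 2 was left out, 6 of the 7 members had an adjusted p under 0.05 in limma, as did 5997 of all 9232 genes, and when auranofin replicate 1 was left out, 0 members and 13 genes did. Transcripts of the LPS response were mostly low in the same library. The 6 measured (Il1b, Tnf, Il6, Nos2, Il1a and Cxcl1) summed to 6104 and 6135 FPKM in control, against 3988 in the first auranofin library and 6193 in the second, and their part in the values of Ptgs2 and Ptges was not tested. Cxcl1 was the exception, at 201, 190.4, 431 and 190.2 FPKM.

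**Figure D3:**
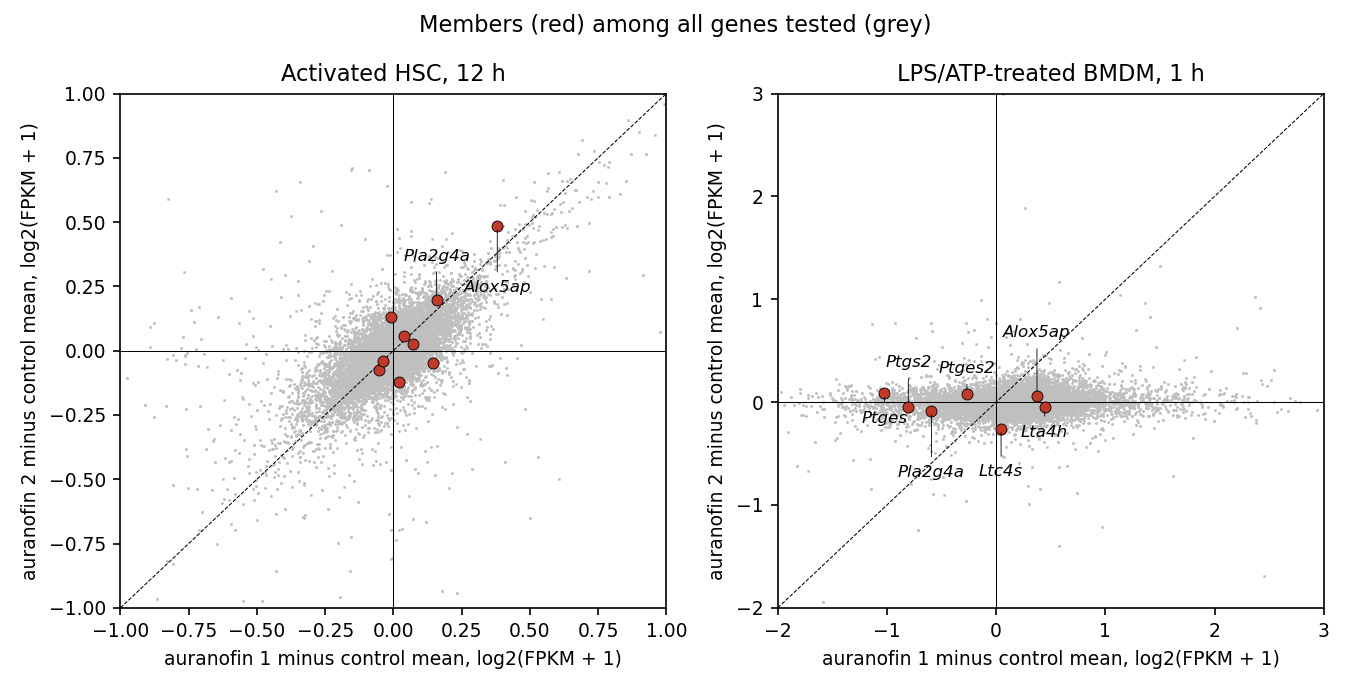
Difference of auranofin replicate 1 (x axis) and auranofin replicate 2 (y axis) from the control mean, as log2(FPKM + 1), for all genes tested (grey) and the members (red) in HSCs (left) and BMDM (right), with a dashed line of equality; genes beyond the axes are not drawn. HSC points follow the line, whereas BMDM points spread along the x axis, with Ptgs2 at -0.80 on the x axis and -0.046 on the y axis. Both axes subtract the same control mean, so spread of the controls alone also moves points along the line.

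The genes whose pattern was most like that of Ptgs2 were sought among the 8963 genes tested in both tables, by the root mean square difference of log2(FPKM + 1) from the control mean over the 4 auranofin libraries. The 5 nearest were Aim1 at 0.022, Stat5b at 0.024, Aebp2 at 0.026, Parp12 at 0.028 and Stom at 0.029. Parp12, a mono-ADP-ribosyltransferase of the interferon response, read 158 and 155 FPKM in control BMDM, against 92.2 FPKM in the first auranofin library and 154 FPKM in the second. Stom, the membrane protein stomatin, read 197, 201, 110 and 194 FPKM in that order. As the choice by likeness required, each had its low value in the library where Ptgs2 had its own. The likeness rests on 4 libraries, of which that one carries nearly all of the difference.

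Other genes of the pathway were taken from a list of 54 symbols, which includes Fam213b under a second symbol as well, covering further phospholipases, synthases, breakdown enzymes, transporters and receptors. In HSCs, 48 were listed and 26 tested, and 4 (15.4%) rose with an adjusted p under 0.05 while 0 fell, beside 2.33% of all genes tested called in either direction. Those 4 were Abcc1, Abcc4, Pla2g7 and Ptgr1, and the first 3 also met the 1.5-fold rule, as did 0.576% of all genes. An unadjusted p under 0.05 was found for 17 of 26, and for 2161 of all 12149 genes. By sign, 13 were positive and 13 negative, with a median log2 fold change of 0.021, and the groups did not overlap in 21 (80.8%, against 50.1% of all genes tested). Mgst2 and Ggt5, counted among the 17 and the 21, averaged only 0.714 and 0.852 FPKM in control. They passed the filter through their auranofin values, so their direction was partly set by it.

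Both export pumps rose, although the call of Abcc4 was lost with no filter on low values (limma adjusted p = 0.0608). Abcc1, which carries leukotriene C4 and other glutathione conjugates out of the cell, measured 31.7 and 30.8 FPKM in control and 49.4 and 46.0 FPKM in auranofin HSCs, a log2 fold change of 0.59 (SE 0.05, limma Benjamini-Hochberg adjusted p = 0.00606). Abcc4, an exporter of prostaglandins and cyclic nucleotides, measured 4.93 and 4.79 FPKM against 8.40 and 7.76, a log2 fold change of 0.63 (SE 0.06, limma adjusted p = 0.00969). In each, the treated and control pairs were separated by several times the gap within a pair. Slco2a1, the prostaglandin uptake carrier the other transporter of the list, had a log2 fold change of 0.18 (limma adjusted p = 0.244).

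Ptgr1, prostaglandin reductase, which also inactivates leukotriene B4, measured 20.9 and 19.2 FPKM in control and 25.7 and 24.7 FPKM in auranofin HSCs, with a log2 fold change of 0.32 (SE 0.05, limma adjusted p = 0.0469). Pla2g7, the secreted phospholipase that hydrolyses platelet activating factor, measured 19.4 and 16.4 FPKM against 29.9 and 25.5, with 0.61 (SE 0.10, limma adjusted p = 0.0469). Both calls stood at the threshold. With all 4 libraries, the limma adjusted p of Pla2g7 and Ptgr1 was 0.1596 and 0.138 with no filter, 0.0535 for both with quantile normalization, and 0.0967 and 0.0968 with eBayes without trend. Without auranofin replicate 1 the limma adjusted p was 0.105 for Pla2g7 and 0.158 for Ptgr1, and Ptgr1 also missed it without control replicate 2 (limma adjusted p = 0.0503) and without auranofin replicate 2 (0.0814).

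The breakdown enzyme Hpgd, which oxidises prostaglandins, was the most abundant of its class in HSCs, at 38.2 ± 1.52 FPKM in control and 33.0 ± 0.796 with auranofin (SD, n = 2, limma adjusted p = 0.0850). Among other abundant members of the list in control HSCs were the cytosolic E synthase Ptges3 (52.9 FPKM), the lysosomal phospholipase Pla2g15 (48.9), the carbonyl reductase Cbr1 (39.6) and the glutathione transferase Mgst3 (34.6). Thromboxane synthase, Tbxas1, read 28.8 ± 1.23 FPKM in control and 33.1 ± 1.33 with auranofin (SD, n = 2, limma adjusted p = 0.123). None of these 6 genes passed the test.

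In BMDM, 42 genes of the list were present and 23 tested, and 0 passed either rule or an unadjusted p under 0.05. The tested genes had a median log2 difference from control of 0.42 in the first auranofin library and of 0.044 in the second, beside 0.18 and 0.0049 over all genes, and the groups did not overlap in 8 (34.8%, against 38.8% of all genes). Ptger2, counted among the 8, averaged 0.629 FPKM in control and passed the filter through its auranofin values. Ptgr1 measured 8.05 and 8.40 FPKM in control, against 26.1 FPKM in the first auranofin library and 9.02 FPKM in the second. Abcc1 followed the same course at 37.5, 39.5, 79.6 and 36.3 FPKM, and Ptges3 at 36.8, 36.6, 81.3 and 39.1. The dipeptidase Dpep2, which converts leukotriene D4 to E4, had the highest mean of the list, with values between 80.8 and 83.7 FPKM in all 4 libraries. Only in the first auranofin library did Ptges3 stand slightly above it.

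**Figure D4:**
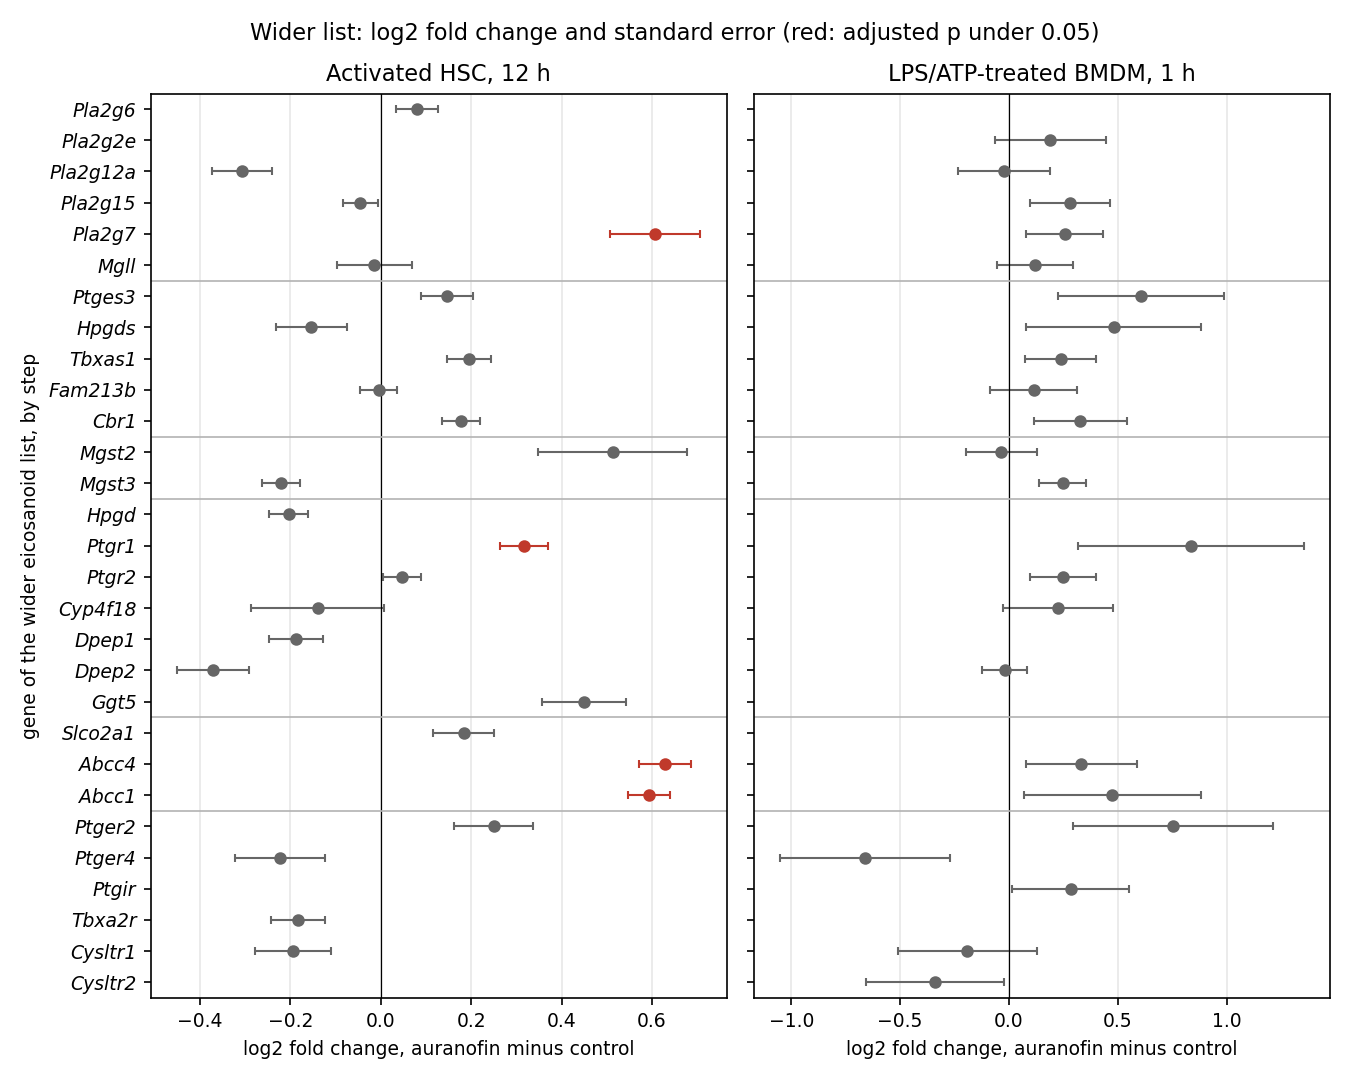
Log2 fold change (auranofin minus control, log2(FPKM + 1)) with its standard error for genes of the wider list that were tested in HSCs (left, 26 genes) and BMDM (right, 23 genes), grouped by step; red marks a Benjamini-Hochberg adjusted p under 0.05 in limma, and a missing point was not tested. The 4 red genes are all in HSCs, and the error bars in BMDM are wider.

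Markers of other cells that carry these genes were measured beside the HSC result, since Alox5ap and Pla2g7 are also expressed by macrophages. Of 14 macrophage markers tested, 4 had a positive and 10 a negative log2 fold change, and the sum was 9007 and 9112 FPKM in control against 8831 and 8840 in auranofin HSCs. One passed the test, Clec4f, with a log2 fold change of 0.27 (limma adjusted p = 0.0395). Stellate or fibroblast markers summed to 4634 and 4755 FPKM in control and 4087 and 4153 with auranofin, and 1 of them, Acta2, fell by 0.38 on the log2 scale (limma adjusted p = 0.00719). Endothelial markers summed to between 182 and 194 FPKM in all 4 libraries. Of the 7, 4 had a positive and 3 a negative log2 fold change. The 2 that passed the test both fell, Clec4g by 0.44 and Stab2 by 0.37 (limma adjusted p = 0.0130 and 0.0169). Over all genes tested in HSCs, 2.33% passed. The part of any of these cells in the values of the eicosanoid genes was not tested.

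Neutrophil markers, 3 of 9 tested, summed to between 6.36 and 18.0 FPKM in 3 HSC libraries and to 75.9 FPKM in auranofin replicate 2, mostly S100a9 at 44.7 and S100a8 at 23.6 FPKM. Alox5 also had its highest HSC value, 0.992 FPKM, in that library, and whether the 2 are linked was not tested. No hepatocyte marker and no mast cell or basophil marker averaged 1 FPKM in HSCs. The 5 LPS response genes tested in HSCs had negative log2 fold changes. Only 1 of them passed the test, Tnf, which fell by 0.36 on the log2 scale (limma adjusted p = 0.0429). Ptgs2 also had a negative log2 fold change, -0.064, with both treated values inside the control range. In BMDM, neutrophil markers, mostly S100a9 and S100a8, summed to between 205 and 210.2 FPKM in control and to 275 and 276 in the auranofin libraries. Of the 9, 5 were tested, all 5 with positive log2 fold changes, and 0 passed (limma adjusted p between 0.721 and 0.770). Macrophage markers in BMDM summed to 11452 to 12632 FPKM, and stellate or fibroblast markers to 10.4 to 16.5 FPKM. Endothelial markers, mostly Kdr, summed to 13.3 and 13.6 FPKM in control BMDM and to 6.36 and 11.8 in the auranofin libraries. Kdr was the only endothelial marker tested in BMDM, and it did not pass (limma adjusted p = 0.721). The other 6 each averaged under 1 FPKM, so the sum follows a single gene. Hepatocyte markers summed to at most 3.61 FPKM in any BMDM library.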

How the data were processed

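RNA was isolated with Trizol and made into stranded mRNA libraries. The submitters' processing notes name CASAVA, FastQC 0.11.7, Trimmomatic 0.38, HISAT2 2.1.0, StringTie 1.3.4d and the mm10 build. The authors deposited 1 table of FPKM values per cell type, and no counts. Each table was fitted alone, as the tables were normalized separately and dose and time differ. Genes averaging 1 FPKM or more across the 4 libraries of a table were retained and put on the log2(FPKM + 1) scale, and limma 3.58.1 (R 4.3.3, lmFit, eBayes with trend) compared auranofin with control. Calls were a Benjamini-Hochberg adjusted p under 0.05 over all genes tested, and beside it at least 1.5-fold with an unadjusted p under 0.05. The pseudocount understates changes of low genes. With 2 libraries a group, the smallest two-sided p of an exact permutation test is 0.333. The fit was tested on simulated data with independent noise in each library. No simulated library stood apart as BMDM auranofin replicate 1 did, so that case was not covered.

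Depth was estimated from the FPKM step of 1 fragment in genes under 0.2 FPKM, with GENCODE M21 transcript lengths, and fragment numbers printed for single genes are estimates from it, which cover counting error only. Coordinates and promoters are from RefSeq on the same assembly. Groups came from the sample labels. The members and lists were chosen with earlier results of these data known. All 10 members were named, with genes of the wider list that passed either call, up to 8 of the highest mean in a table, and the 5 genes most like Ptgs2; genes of marker lists were named after their values were seen. Alternatives were a pseudocount of 0.1, no filter, a minimum mean of 5 FPKM, median centring, quantile normalization, eBayes without trend, the replicate number as a block, and leaving out each library.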

Additional observations from a re-analysis of the deposited data

Results flagged for a closer look

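Pla2g4a, the cytosolic phospholipase A2 gene, lay on opposite sides of control in the 2 cell types. In HSCs both auranofin libraries were above both controls, with a log2 fold change of 0.18 after 12 h at 0.03 µM. In BMDM treated with LPS and ATP both auranofin libraries were below both controls, with a log2 fold change of -0.34 after 1 h, of which most came from auranofin replicate 1. Groups without overlap were common, at 50.1% of all genes tested in HSCs and 38.8% in BMDM. How many genes lay on opposite sides in this way was not counted. Whether the values of the cell types differ was not tested, because the tables were normalized separately and dose and time differ, and neither value passed the adjusted threshold on its own.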

How the results depend on the processing

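In HSCs the number of the 10 genes called was 0, and 0 under every other alternative with all 4 libraries except the replicate block, under which it was 1 (Alox5ap, limma adjusted p = 0.0288). Leaving out 1 library gave 0 to 1, the 1 being Alox5ap without either control library. For the wider list in HSCs, 4 genes became 1 with no filter on low values (Abcc1), 2 with quantile normalization and 2 with eBayes without trend (Abcc1 and Abcc4 in both), and 3 to 6 on leaving out 1 library. In BMDM the 10 genes gave 0 and the wider list 0 under each alternative with all 4 libraries, and 0 to 6 and 0 to 18 on leaving out 1 library, the upper values being without auranofin replicate 2. Those fits have a group of 1 library, which is assumed to vary like the other group. Leaving out 1 library also turned the sign of small log2 fold changes. In HSCs these ranged from -0.17 to 0.039 for Ptgs2, -0.028 to 0.15 for Ltc4s, -0.048 to 0.15 for Ptges, -0.10 to 0.024 for Ptgis and -0.12 to 0.022 for Ptges2. In BMDM they ranged from -1.02 to 0.085 for Ptges, -0.27 to 0.081 for Ptges2, -0.051 to 0.44 for Lta4h, -0.26 to 0.045 for Ltc4s and -0.081 to 1.029 for Abcc1. No other alternative turned a sign. Whether the replicate numbers pair the libraries could not be told from 2 pairs, so no pairing was assumed. The correlation of deviations between same-numbered libraries was 0.11 in HSCs and -0.055 in BMDM, and the block changed no other call of the members. The cause of these changes was not tested. With 2 libraries a group, and 1 BMDM library far from its partner, differences of the size seen for Ptgs2 could not be told from the spread in BMDM.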

Other observations

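The receptors named here were chosen after their values were seen. Ptger4, a prostaglandin E2 receptor, measured 10.8 and 18.4 FPKM in control BMDM, against 6.29 FPKM in the first auranofin library and 11.5 FPKM in the second. Ptger2, another receptor for the same prostaglandin, measured 0.582, 0.676, 3.23 and 0.782 FPKM in that order. The first of these had its lowest value, and the second its highest, in the first auranofin library, where Ptgs2 was lowest. In HSCs, Ptger4 measured 3.19 and 4.06 FPKM in control and 2.94 and 2.95 FPKM with auranofin, and Ptger2 1.54 and 1.67 FPKM in control and 2.28 and 1.92 FPKM with auranofin. Neither passed the test in either cell type (limma adjusted p between 0.226 and 0.721). Among the mast cell or basophil markers in BMDM, Hdc, which encodes histidine decarboxylase, was the only one above 1 FPKM, at 51.3 and 54.3 FPKM in control, against 13.6 FPKM in the first auranofin library and 54.5 FPKM in the second.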
